A study of Mus musculus with 19 samples.

Results

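The crypts of ad libitum–fed Nt-/- mice, which lack a functional neurotensin gene, were compared with those of ad libitum–fed Nt+/+ mice. The comparison was made with 9 of the 19 mice of the series, chosen by genotype and diet in the sample titles: 5 Nt+/+ mice (3 females, 2 males) and 4 Nt-/- mice (3 females, 1 male), with 1 library per mouse. All were of the C57BL/6 strain and had free access to standard chow. The study's methods describe the fed controls of its fasting studies as littermates matched for age and sex. They do not say whether Nt-/- and Nt+/+ mice were littermates of each other. The other 10 mice had been fasted for 48 hours; they shared the estimate of spread with the fed mice and were used for a comparison of the genotype difference between diets. Crypts are the epithelial pits that hold the intestinal stem cells (ISCs), the Paneth cells and the dividing progenitors above them. They were shaken free with EDTA from the proximal part of the small intestine. Part of the study's mice carried an Lgr5-EGFP-IRES-CreERT2 allele, and the sources used here do not say whether the sequenced mice did.

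Neurotensin (NT) is a peptide hormone that N cells, a type of enteroendocrine cell, release into the blood and the surrounding mucosa after a fatty meal. It acts mainly through NTR1, a G-protein–coupled receptor that signals to the ERK and AKT kinases, and it is known for effects on fat absorption, gut motility and mucosal growth. N cells are most frequent in the distal small intestine, and the knockout removes the peptide from every tissue of the animal. The comparison asks what the loss of NT does to the crypt when food is plentiful, and how large a change of expression the 9 mice could have missed.

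The counts per fed mouse totalled 15160127 to 35068669 reads, and 17875 of the 55487 genes listed were abundant enough to test. Values are given as CPM, counts scaled to a common library size, and a log2 fold change above 0 means a higher level in Nt-/- mice. The 12 genes of the epithelial identity list summed to 4555 to 6016 TPM, a length-scaled share of transcripts, in the 9 mice, against 1.38 to 4.53 TPM for 11 fibroblast genes and at most 0.19 TPM for 8 pancreatic acinar genes. Sex labels matched the sex-linked genes in 9 of 9 mice. One library stood apart: in Nt+/+ mouse 1 the ribosomal RNA transcript CT010467.1 took 11.5% of the counts, against 0.233% to 1.32% in the other fed mice. Without it the median log2 fold change of 38 of the 54 gene lists used here moved by over 1.5 times, with a change of sign in 7.

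Nts was the only gene called in fed mice, and its label held in every library. It lay between 6.75 and 8.59 CPM in the 5 Nt+/+ mice and between 0.144 and 0.746 CPM in the 4 Nt-/- mice. Over all tested genes, 1 gene (0.00559%) passed the quasi-likelihood test of edgeR at an adjusted p under 0.05, and the next smallest adjusted p was 0.982. An unadjusted p under 0.05, called nominal from here on, was reached by 299 genes (1.67% of those tested), 152 higher (0.85%) and 147 lower (0.822%) in Nt-/- mice, where an even spread of p-values would give 894. The median p was 0.64. The p-values of this edgeR fit leaned to high values, with 299 genes below 0.05 and 1284 above 0.95. The fit was thus a cautious one, and a count under 894 does not measure the absence of an effect. The nominal count was 551 (3.08%) with the file name number as a replicate block and 522 (2.92%) with the title number. It was 461 (2.6%) without Nt+/+ mouse 1 and 745 (2.16%) with no filter on low counts. Nominal counts of list members under a block are to be read beside these shares. DESeq2 called 3 genes, Nts, Cd14 and Fam177a. Both added names were chosen after their values were seen, and Fam177a was at 7.64 CPM in Nt-/- mouse 1 and at 0 in the other 8 fed mice.

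No change in the rest of the NT system passed the test. Ntsr1 and Ntsr2, which encode its receptors, and Pcsk2, a convertase of its precursor, were too low to test. Sort1, the sorting receptor sortilin, which also binds NT, was at 387, 324, 341, 287 and 322 CPM in Nt+/+ mice 1 to 5 and at 380, 332, 326 and 332 CPM in Nt-/- mice 1 to 4, with a log2 fold change of 0.044 (95% interval, −0.22 to 0.31). The groups overlapped throughout. The peptidases that cut NT were measured with similar precision: Nln, neurolysin, differed by 0.017 (−0.22 to 0.26), Thop1 by −0.077 (−0.32 to 0.17), Ece1 by 0.10 (−0.065 to 0.27) and Prep by −0.11 (−0.30 to 0.082). Mme, neprilysin, a brush border enzyme, was the widest at 0.13 (−0.57 to 0.84). Pcsk1, a prohormone convertase of enteroendocrine cells, differed by 0.17 (−0.049 to 0.38). For 6 of these 7 genes a change beyond 1.5-fold was excluded, and for all 7 a change beyond 2-fold, in tests of the bound adjusted over all genes. Over all tested genes the shares were 62.2% and 88%.

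**Figure D1:**
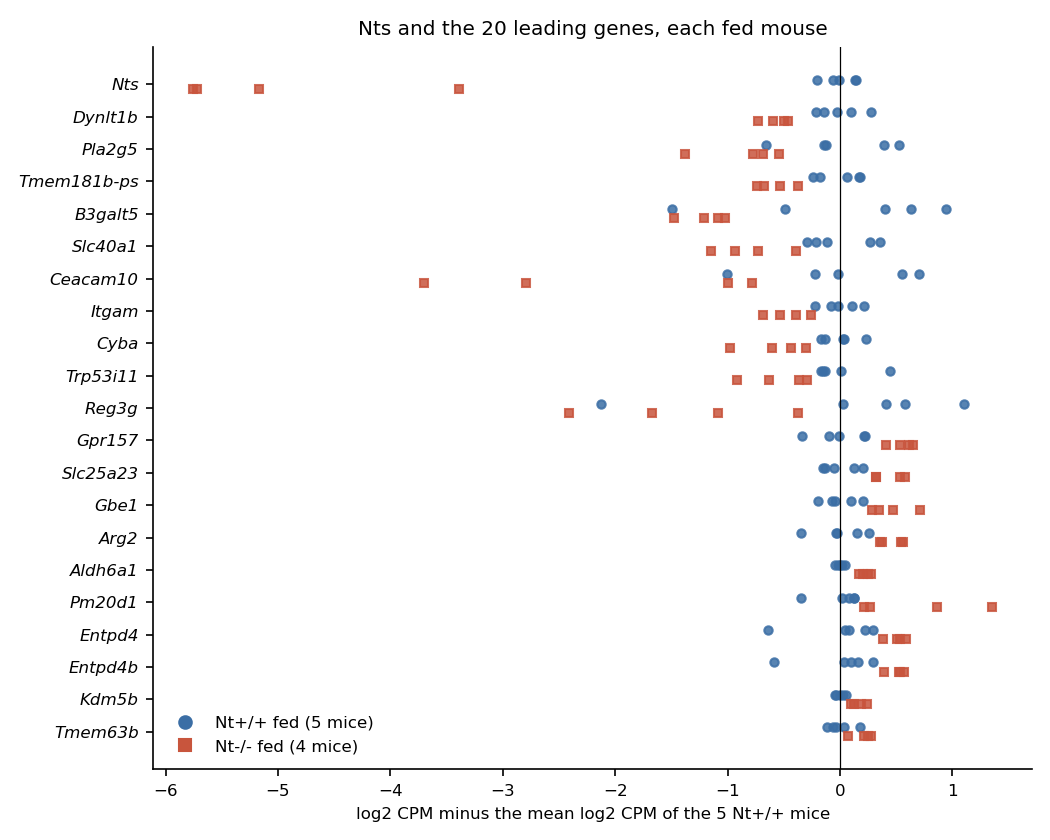
Level of Nts and of the 20 leading genes in each of the 9 fed mice, as log2 CPM minus the mean log2 CPM of the 5 Nt+/+ mice (0 on the horizontal axis). Circles are Nt+/+ mice and squares Nt-/- mice. The Nt-/- mice lie below 0 for Nts and the 10 genes under it and above 0 for the 10 genes at the bottom, and only Nts passed the test after adjustment.

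The genes with the smallest p among those of at least 5 CPM, 10 in each direction, were described further. They were chosen by the fed values, so those values are a description and carry no test of their own. Of the 10 lower genes, Reg3g, a secreted lectin that kills gram-positive bacteria, was at 167, 964, 1565, 742 and 1089 CPM in Nt+/+ mice 1 to 5 and at 342, 137, 228 and 560 CPM in Nt-/- mice 1 to 4, a log2 fold change of −1.51 (95% interval, −2.46 to −0.57). Nt+/+ mouse 1 lay among the Nt-/- mice, so the groups overlapped. Pla2g5, a secreted phospholipase A2, was at 8.88 to 20.1 CPM in Nt+/+ mice and at 5.36 to 9.58 CPM in Nt-/- mice (−0.87; −1.31 to −0.43). Ceacam10, of the carcinoembryonic antigen family, had the largest difference of the 20 (−1.75; −2.76 to −0.73), and B3galt5, a galactosyltransferase of glycan chains, differed by −1.42 (−2.19 to −0.64). In both, Nt+/+ mouse 1 was the lowest of its group and lay among the Nt-/- mice.

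Itgam, the CD11b integrin chain of myeloid cells, was at 18.4 to 24.8 CPM in Nt+/+ mice and at 13.4 to 18.003 CPM in Nt-/- mice (−0.46; −0.74 to −0.18). Cyba, the p22phox subunit of NADPH oxidases, was at 19.3 to 25.5 CPM against 11.04 to 17.6 CPM (−0.56; −0.91 to −0.22). Slc40a1, ferroportin, which exports iron, was at 11.02 to 17.3 CPM against 6.12 to 10.3 CPM (−0.79; −1.24 to −0.34). Trp53i11 differed by −0.55 (−0.89 to −0.20). In these 4 genes no Nt-/- mouse reached the lowest Nt+/+ mouse. Cd14, a co-receptor for lipopolysaccharide, fell outside the rule at a mean of 4.72 CPM and was chosen after its values were seen: it was at 4.37 to 7.27 CPM in Nt+/+ mice and at 1.68 to 3.57 CPM in Nt-/- mice, a log2 fold change of −1.07 (−1.53 to −0.60), with an adjusted p of 0.982 in edgeR. Other markers of macrophages were low: of the 6 tested members of the macrophage and dendritic cell list 5 were below 0 (median, −0.11; −0.28 without Nt+/+ mouse 1 and 0.056 without Nt-/- mouse 2), only Itgam was nominal, and the summed level of its 11 genes was 10.2 to 19.3 TPM in Nt+/+ and 10.2 to 16.6 TPM in Nt-/- mice. The part of such cells in the Itgam and Cd14 values was not tested, and in whole crypts fewer cells of a type cannot be told apart from less RNA per cell.

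Of the 10 higher genes, Arg2, the mitochondrial arginase, was at 104, 146, 129, 157 and 128 CPM in Nt+/+ mice and at 192, 171, 169 and 194 CPM in Nt-/- mice (0.45; 0.19 to 0.71), so every Nt-/- mouse lay above every Nt+/+ mouse. Gbe1, the glycogen branching enzyme, was at 6.94 to 9.16 against 9.69 to 13.0 CPM (0.45; 0.20 to 0.70). Aldh6a1, which degrades valine, was at 23.6 to 24.9985 CPM in Nt+/+ mice and at 27.2 to 29.4 CPM in Nt-/- mice (0.22; 0.076 to 0.37). Slc25a23, a mitochondrial carrier of ATP-Mg and phosphate, differed by 0.43 (0.20 to 0.67) and Pm20d1, a secreted enzyme that makes N-acyl amino acids, by 0.74 (0.24 to 1.24). Gpr157, an orphan receptor, was at 3.63 to 5.37 CPM in Nt+/+ mice and at 6.12 to 7.22 CPM in Nt-/- mice (0.54; 0.28 to 0.79). Kdm5b, a histone demethylase, differed by 0.16 (0.050 to 0.28) and Tmem63b by 0.20 (0.061 to 0.34), and Tmem63b was the only 1 of the 10 in which the groups overlapped. Over all tested genes the groups did not overlap in 124 (0.694%), 64 higher (0.358%) and 60 lower (0.336%).

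A number of the leading genes lay beside each other in stretches of duplicated genes. Dynlt1b, a dynein light chain (chr17:6430112-6436296, GRCm38), was at 38.5 to 54.3 CPM in Nt+/+ mice and at 27.0 to 32.3 CPM in Nt-/- mice (−0.58; −0.84 to −0.32), and its neighbour Tmem181b-ps, a transcribed pseudogene (chr17:6438524-6467022), at 27.6 to 37.0 against 19.6 to 25.2 CPM (−0.58; −0.88 to −0.29). All 4 genes tested between positions 6430112 and 6582703 of chromosome 17 were nominal and lower, and in 3 of them the groups did not overlap. Over all tested genes these shares were 0.822% and, for lower genes, 0.336%. Besides these 2 neighbours the 4 include 2 pseudogenes of low level. Gm2808 was at 1.49 to 4.23 CPM in Nt+/+ mice and at 0.472 to 1.35 CPM in Nt-/- mice. Gm29721 was at 0 to 0.534 CPM in Nt+/+ mice and at 0 in all Nt-/- mice, too low for a usable interval. In fasted mice 2 of the 4 were nominal. Entpd4, a nucleotide phosphatase of the Golgi and lysosomes (chr14:69337174-69367270), was at 20.1 to 38.3 CPM in Nt+/+ mice and at 40.7 to 47.0 CPM in Nt-/- mice (0.47; 0.15 to 0.79), and its copy Entpd4b (chr14:69555424-69585520) at 11.5 to 21.1 against 22.6 to 25.7 CPM (0.48; 0.15 to 0.82). Of the 16 genes tested between 69241848 and 69695834 of chromosome 14, 15 were above 0, 3 were nominal and in 8 every Nt-/- mouse lay above every Nt+/+ mouse. Over all tested genes 49.6% were above 0, 0.85% nominal and higher, and 0.358% apart and higher. One of the 8, Gm16867, was at 0.0445 to 8.603 CPM in Nt+/+ mice and at 11.3 to 17.05 CPM in Nt-/- mice. Among the 8, Gm31748 equalled Gm37847 and Gm38378 equalled Gm37513. In another stretch of chromosome 14, between 25923300 and 26207041, 4 of 6 tested genes were above 0, 2 were nominal and 1 was apart. In fasted mice 3 of those 6 had the same sign. All these stretches were picked after the values were seen. Reads that fit several copies are divided among them by the counting model. In the stretch with Entpd4, 6 genes had values identical to those of a partner copy, so single genes there are uncertain.

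The fasted mice gave a second comparison of the genotypes, in which no mouse of the fed comparison took part. Of the 20 leading genes of the fed mice, 19 had the same sign in fasted mice, as did 56.5% of all 17874 tested genes other than Nts. Of the 20, 11 (55%) were nominal there in the same direction, against 6.52% of all tested genes. The spread of each gene was estimated from fed and fasted mice together, so a choice by small fed p also favours a small fasted p. The 20 had at least 5 CPM, which the share over all genes did not require. Entpd4 and its copy, and Dynlt1b and its neighbour, were counted singly. In all, 9.14% of tested genes were nominal in fasted mice. The 11 were Gpr157, Arg2, Aldh6a1, Pm20d1, Entpd4, Entpd4b and Kdm5b, all higher, and Dynlt1b, Pla2g5, Tmem181b-ps and Trp53i11, all lower. For Arg2 the fasted log2 fold change was 0.43, for Gpr157 0.49, for Dynlt1b −0.49 and for Tmem181b-ps −0.64. In contrast Reg3g was at −0.33, Itgam at −0.17, Slc40a1 at −0.28 and Slc25a23 at −0.099 in fasted mice, with none of these nominal. The difference between diets had an unadjusted p of 0.00211 for Slc25a23 and did not pass after adjustment in edgeR. Of the 298 nominal genes other than Nts, 214 (71.8%) kept their sign in fasted mice, against the 56.5% of all tested genes, and 67 were nominal there with that sign, which is 22.5% of the fed list and 4.1% of the 1633 genes nominal in fasted mice. Mice of different groups that share a number in the file names deviated together, so the fed and fasted values are not wholly independent.

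The genotype difference averaged over both diets was then fitted, a step added after the data were seen. It called 4 genes at an adjusted p under 0.05: Nts, Dynlt1b (−0.54; 95% interval, −0.71 to −0.36), Tmem181b-ps (−0.61; −0.82 to −0.41) and Gpr157 (0.51; 0.34 to 0.69), each of the last 3 with an adjusted p of 0.023 in edgeR. With the fed mice alone none of these 3 passed. In that averaged fit 1211 genes were nominal.

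**Figure D2:**
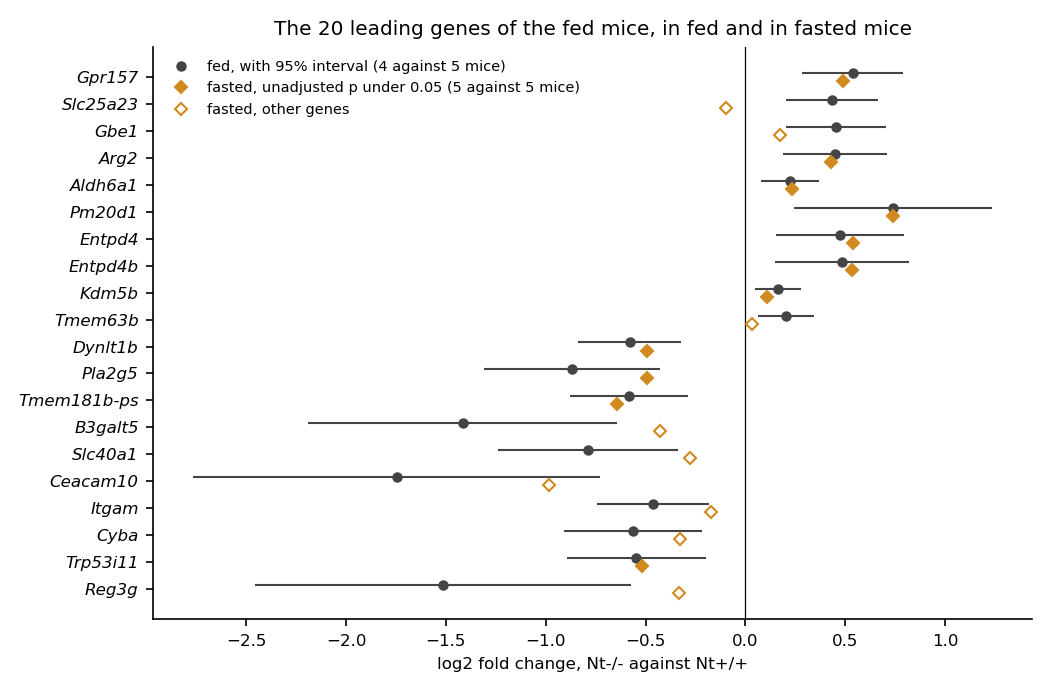
Log2 fold change, Nt-/- against Nt+/+, of the 20 leading genes of the fed mice, in fed mice (circles with 95% intervals, 4 against 5 mice) and in fasted mice (diamonds, 5 against 5 mice). Filled diamonds mark the 11 genes with an unadjusted p under 0.05 in fasted mice, and 19 of the 20 diamonds lie on the same side of 0 as the circle above them.

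Of the 54 gene lists with tested members, the MHC class II list had the lowest median. These genes encode the proteins that present extracellular antigen to CD4+ T cells, and crypt epithelium, including ISCs, makes them in addition to B cells and dendritic cells. All 7 members were below 0 and all 7 were nominal (percent nominal and lower over all genes, 0.822%), with a median log2 fold change of −0.70 against −0.00105 for all tested genes, of which 49.6% were above 0, and none passed after adjustment. Cd74, the invariant chain, was at 738, 558, 525, 692 and 579 CPM in Nt+/+ mice and at 616, 225, 294 and 377 CPM in Nt-/- mice (−0.71; 95% interval, −1.20 to −0.22). Nt-/- mouse 1 lay among the Nt+/+ mice, and the other 3 lay below all of them. The chain genes H2-Ab1 (−0.72; −1.22 to −0.21) and H2-Aa (−0.79; −1.37 to −0.21) and the peptide exchanger H2-DMb1 (−0.70; −1.18 to −0.22) had the same 3 Nt-/- mice below every Nt+/+ mouse. Ciita, the master regulator of the group, differed by −0.52 (−0.95 to −0.087), and in it only Nt-/- mice 2 and 3 did so.

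The mean log2 CPM of the MHC class II list differed by −0.73 (95% interval over mice, −1.43 to −0.033). With 1 mouse left out in turn, that interval left out 0 in 1 of 9 cases, without Nt-/- mouse 1 (−1.55 to −0.41). The list mean was lower in the Nt-/- mouse of all 4 pairs that share a file name number (differences, −1.23 to −0.19; interval of their mean, −1.56 to −0.019), and the list median ranged from −1.01 without Nt-/- mouse 1 to −0.52 without Nt-/- mouse 2, where 4 of the 7 genes were still nominal. In fasted mice the list median was −0.04. The difference between diets had an unadjusted edgeR p of 0.0359 for H2-Aa and 0.0339 for H2-DMb1, and it passed for no member after adjustment. Of the B cell and plasma cell genes all 8 tested members were below 0 (median, −0.18) and none was nominal. Their median ran from −0.85 without Nt-/- mouse 4 to 0.083 without Nt-/- mouse 2, and was −0.028 without Nt+/+ mouse 1. The 9 genes summed to 52.0 to 137 TPM in Nt+/+ and 27.4 to 147 TPM in Nt-/- mice. The 16 T cell and intraepithelial lymphocyte genes had a median of −0.016 (−0.17 to 0.18 with 1 mouse left out) and sums of 74.5 to 259 against 112 to 203 TPM. The part of lymphocytes in the MHC class II values was not tested.

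Further lists of immune genes also lay low. In the list of genes that respond to the microbiota, 9 of 10 tested members were below 0 (median, −0.34), and 3 were nominal: Reg3g, its relative Reg3b (246 to 2089 CPM in Nt+/+ mice and 220 to 979 CPM in Nt-/- mice; −1.24; −2.20 to −0.28) and Nos2, inducible nitric oxide synthase (28.1 against 9.33 CPM on average; −1.59; −3.12 to −0.064). Pigr, which carries IgA into the lumen, was the most abundant member and differed by −0.082 (−0.30 to 0.13). The list mean differed by −0.56 (−1.09 to −0.032), an interval that left out 0 in 4 of the 9 cases with 1 mouse left out and included it over the 4 pairs (−1.35 to 0.34). The list median was −0.86 without Nt-/- mouse 2, −0.14 without Nt-/- mouse 3 and −0.21 without Nt+/+ mouse 1. With either replicate block 1 member, not 3, was nominal. All 14 MHC class I and immunoproteasome genes were below 0 (median, −0.17), Psmb9 (−0.36) and Nlrc5 (−0.48) nominally, with a list difference of −0.24 (−0.60 to 0.13). The list median was −0.29 without Nt-/- mouse 1 and −0.11 without Nt-/- mouse 3. With the replicate block 5 (title number) or 6 (file name number) were nominal. Over all genes the nominal share also rose under the blocks, from 1.67% to 2.92% and 3.08%.

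The interferon-stimulated list was below 0 in 19 of 22 members (median, −0.23; list difference, −0.25, interval −0.69 to 0.20). The median was −0.085 without Nt+/+ mouse 1 and −0.11 without Nt-/- mouse 3, and with the title number as replicate block −0.39, with 22 of 22 below 0. Of the members, 1 was nominal, and the count was 6 with the title number as replicate block and 3 with the file name number. Over all genes the nominal share was 2.92% and 3.08% under these blocks, against 1.67% without. Ifit2 (−0.45; −0.89 to 0.0016) was close to the nominal limit, and Parp14, the most abundant member, differed by −0.25 (−0.78 to 0.28). In fasted mice the list median was 0.36, above 0. The difference between diets was nominal for 4 members and passed for none after adjustment.

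**Figure D3:**
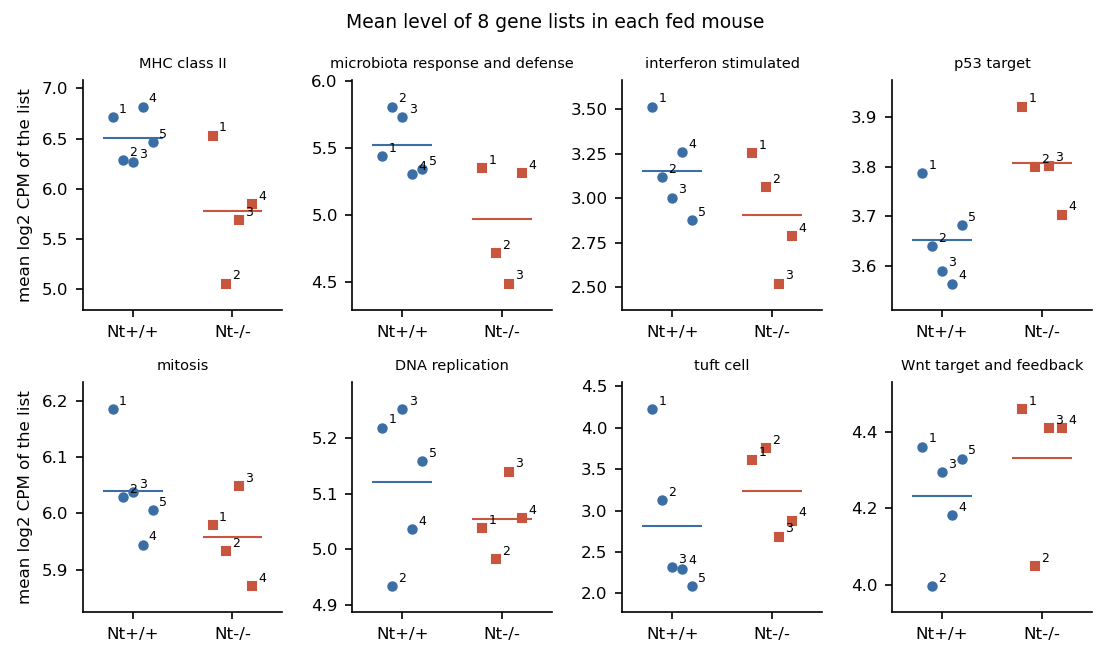
Mean log2 CPM of 8 gene lists in each fed mouse, with the replicate number beside each point and a line at the group mean; circles are Nt+/+ mice and squares Nt-/- mice. In the MHC class II panel Nt-/- mice 2, 3 and 4 lie below every Nt+/+ mouse, and in the tuft cell panel Nt+/+ mouse 1 lies above all others.

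Targets of p53, the tumor suppressor that answers DNA damage, were the only list with an interval above 0 over the 9 mice taken singly. Of its 18 members 16 were above 0 (median, 0.11), and the list mean differed by 0.15 (95% interval, 0.014 to 0.29), with 3 of the 4 Nt-/- mice above every Nt+/+ mouse. The interval left out 0 in 2 of the 9 cases with 1 mouse left out, without Nt+/+ mouse 1 and without Nt-/- mouse 4, and over the 4 pairs that share a file name number it reached below 0 (mean, 0.14; −0.0044 to 0.28). Eda2r, a receptor of the tumor necrosis factor family (1.42 against 2.27 CPM; 0.68; 0.054 to 1.31), and Phlda3, an inhibitor of AKT (0.357 against 0.610 CPM; 0.77; 0.0029 to 1.54), were nominal. Both are low in these crypts. The nominal members numbered 5 with the title number and 1 with the file name number as replicate block, where 2.92% and 3.08% of all genes were nominal. The abundant members moved less: Cdkn1a, the p21 inhibitor, differed by 0.19 (−0.15 to 0.54) and Ccng1 by 0.15 (−0.038 to 0.35). In all, intervals of 3 of the 54 lists left out 0, each at 95% with no adjustment over the lists, and with 1 mouse left out 0 to 3 did. Over the 4 pairs, a calculation added after the data were seen, 4 lists left out 0. These were MHC class II below it, and above it red blood cell genes (mean, 0.67; 0.34 to 1.01), Notch pathway genes (0.11; 0.0073 to 0.20) and autophagy and lysosome genes (0.028; 0.0051 to 0.051).

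In the fit without a replicate block no gene of the lists of cell division was nominal, and the intervals of the 3 lists included 0. With either block 1 gene of G1 and S phase entry was nominal and lower. With the file name number as block 1 DNA replication gene was too. Of 34 mitosis genes 33 were below 0, and the median was −0.090. Top2a, the topoisomerase of dividing cells, was at 486 to 549 CPM in Nt+/+ mice and at 463 to 493 CPM in Nt-/- mice (−0.095; −0.33 to 0.14). Mki67, the marker of cycling cells, was at 753 to 865 against 705 to 813 CPM (−0.099; −0.29 to 0.094), with overlap of the groups. Cdca8 (−0.16) and Ndc80 (−0.15), both of the mitotic spindle apparatus, had the smallest p of the list. The list mean differed by −0.082 (−0.22 to 0.050), equal to 0.944 times the Nt+/+ level with an interval of 0.862 to 1.04 times, and the mouse order overlapped. The median was −0.045 without Nt+/+ mouse 1, the mouse with the highest list mean, and −0.14 with the file name number as replicate block.

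Of 40 DNA replication genes 37 were below 0 (median, −0.081; list difference, −0.066, interval −0.24 to 0.11). The list mean was higher in the Nt-/- mouse of 2 of the 4 pairs and lower in 2 (−0.18 to 0.10). Its median was −0.040 without Nt+/+ mouse 3, −0.051 without Nt+/+ mouse 1 and −0.12 without Nt+/+ mouse 2. Mcm6, a subunit of the replicative helicase, differed by −0.088 (−0.29 to 0.12), Rrm1, which makes deoxyribonucleotides, by −0.096 (−0.31 to 0.12), and Cdt1 and Pold3 by −0.14 and −0.15. For each of the 34 mitosis and 40 replication genes the 95% interval lay within 1.5-fold, as it did for 60.4% of all tested genes. That share depends on level: it was 92.4% from 10 to 100 CPM and 93.9% above 100 CPM. Female mice alone gave a replication median of −0.015. Among 12 genes of G1 and entry into S phase 9 were below 0 (median, −0.035, and −0.080 to −0.0071 with 1 mouse left out; list difference, −0.044, interval −0.22 to 0.13). Ccnd1, cyclin D1, was at 140 to 234 CPM in Nt+/+ mice and at 111 to 176 CPM in Nt-/- mice (−0.35; −0.73 to 0.042), while Ccnd2 differed by 0.099 (−0.20 to 0.40) and Ccnd3 by −0.11 (−0.30 to 0.087).

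The genes that report ERK activity, a pathway that NT is known to switch on through NTR1, were split, 10 above and 10 below 0 of 20 tested (median, 0.018; list difference, 0.096, interval −0.095 to 0.29). The median was −0.0040 without Nt-/- mouse 4 and 0.13 without Nt-/- mouse 2. Dusp5, a nuclear ERK phosphatase, was at 8.19 to 10.4 CPM in Nt+/+ mice and at 9.48 to 13.2 CPM in Nt-/- mice (0.30; 0.040 to 0.56) and was the only nominal member in the fit without a replicate block. With either block 1 member was nominal and higher, and 1 was nominal and lower. Ccnd1 belongs to this list and to the G1 and Wnt lists, and was the lowest member of each without a block. The nominal and lower genes counted in these lists can thus be the same gene. Myc differed by 0.037 (−0.68 to 0.75), and a change beyond 1.5-fold was not excluded for it. The insulin, AKT and FOXO list had the narrowest interval of all: 19 genes, a list difference of 0.0027 and an interval of −0.049 to 0.054, which leaves room for 0.967 to 1.04 times the Nt+/+ level. Its members Igf1r (−0.12), Insr (0.083) and Pik3r1 (0.082) were all short of nominal.

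Stem cell genes and Wnt targets showed no change that passed. Lgr5, the Wnt target gene that marks ISCs, was at 22.7, 19.2, 30.5, 26.9 and 38.6 CPM in Nt+/+ mice and at 29.5, 23.2, 39.1 and 32.4 CPM in Nt-/- mice (0.17; −0.24 to 0.59). Olfm4, a secreted ISC glycoprotein, was at 1444 to 2413 CPM against 1249 to 2071 CPM (−0.074; −0.53 to 0.38). The groups overlapped in both. Ascl2, a transcription factor of ISCs, differed by 0.15 (−0.47 to 0.76), Sox9 by 0.20 (−0.36 to 0.75), Msi1, an RNA-binding protein, by −0.048 (−0.36 to 0.27), Ephb3 by 0.085 (−0.29 to 0.46), Tnfrsf19 by 0.024 (−0.53 to 0.58) and Tcf7, a Wnt transcription factor, by 0.21 (−0.029 to 0.45). Of these 8 genes together with Myc, Ccnd1, Mki67 and Cpt1a, 12 in all, none was nominal in the fit without a replicate block. In that fit a change beyond 2-fold was excluded for 12 of them, and a change beyond 1.5-fold for 8. Over all tested genes the shares were 88% and 62.2%.

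The 16-gene ISC list had 12 members above 0 and a list difference of 0.052 (−0.28 to 0.38). Prom1 (−0.21; −0.48 to 0.064) had its smallest p and Slc12a2, an ion transporter of crypt cells (0.076; −0.19 to 0.34), was among its most abundant genes. Of 17 Wnt targets and feedback genes 14 were above 0 (median, 0.13; list difference, 0.098, interval −0.17 to 0.36). With the file name number as replicate block the median was 0.043 with 11 of 17 above 0, and it was 0.045 without Nt+/+ mouse 2. With either block 1 of the 17 genes was nominal and higher, and 1 was nominal and lower. Axin2, the feedback inhibitor, differed by 0.097 (−0.30 to 0.49) and Znrf3, a ligase that removes Wnt receptors, by 0.13 (−0.13 to 0.39). In the list mean 3 of the 4 Nt-/- mice lay above every Nt+/+ mouse, and Nt-/- mouse 2 lay below 4 of the 5. The reserve stem cell list was split evenly, 3 above and 3 below 0, with Lrig1 at 0.0077 (−0.26 to 0.27), Hopx at 0.037 (−0.30 to 0.37), Tert at 0.14 and Ly6a, low at 0.193 to 3.69 CPM, at −0.83 (−2.02 to 0.36).

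The mature lineages overlapped between the groups. Enteroendocrine genes, the class of cell that makes NT, were above 0 in 13 of 17 (median, 0.072, and −0.014 without Nt-/- mouse 1; list difference, 0.097, interval −0.076 to 0.27). Tph1, the serotonin-making enzyme of enterochromaffin cells, was at 7.65 to 10.7 CPM in Nt+/+ mice and at 9.32 to 13.8 CPM in Nt-/- mice (0.32; 0.011 to 0.63) and was the only nominal member, of 2 with the title number as block. Cck, cholecystokinin (0.21; −0.045 to 0.46), Chgb (0.16; −0.039 to 0.35) and Chga (0.083; −0.18 to 0.34), the granins of secretory granules, were not nominal. Goblet cell genes had 11 of 14 members above 0 (median, 0.10; list difference, 0.090, interval −0.45 to 0.63). The goblet median was 0.31 without Nt+/+ mouse 1, −0.068 without Nt-/- mouse 2 and −0.012 without Nt-/- mouse 1, and 0.019 with 8 of 14 above 0 once sex was a covariate. Muc2, the main mucin, differed by 0.21 (−0.18 to 0.61), while Zg16, a lectin that binds bacteria, differed by −0.47 (−0.97 to 0.034) and Fcgbp by −0.16 (−0.40 to 0.078).

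Paneth cell genes had a median of 0.24 (9 of 14 above 0), which was 0.028 without Nt-/- mouse 1, 0.39 without Nt-/- mouse 4 and 0.44 in female mice, with 14 of 14 above 0. Of its defensins, Defa17 differed by 0.30 (−0.20 to 0.80), Defa26 by 0.32 (−0.22 to 0.86) and Defa24 by 0.25 (−0.30 to 0.79), while Lyz1, lysozyme, was at −0.22 (−0.88 to 0.44). The defensins are a family of near-identical genes whose reads the counting could split. All 14 tuft cell genes were above 0 (median, 0.26), none nominally, and the interval of the list was wide (difference, 0.42; −0.77 to 1.61). Dclk1, the kinase that marks tuft cells, was at 131, 57.3, 31.8, 28.0 and 30.2 CPM in Nt+/+ mice and at 82.2, 91.7, 37.7 and 53.9 CPM in Nt-/- mice (0.25; −0.73 to 1.24), and in Trpm5, their taste channel, Nt+/+ mouse 1 was again the highest of the 9 at 118 CPM (0.21; −0.94 to 1.37). The tuft median was 0.90 without Nt+/+ mouse 1 and −0.020 in female mice alone. Ltc4s (0.29) and Hpgds (0.20), enzymes of leukotriene and prostaglandin synthesis, had its smallest p.

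Red blood cell genes had the highest median, 0.53 (0.24 without Nt-/- mouse 3, 0.32 without Nt+/+ mouse 1), with Hba-a1 at 0.95 (−0.23 to 2.14), Hbb-bs at 0.53 (−0.32 to 1.39) and Hba-a2 at 0.34 (−0.59 to 1.27), on sums of 10.6 to 43.8 TPM in Nt+/+ and 18.04 to 61.9 TPM in Nt-/- mice. The groups overlapped in the list mean. The ileum list, present as a check of region, had a median of 0.17 on 5 tested genes (−0.056 without Nt+/+ mouse 1) but a list difference of −0.29 (−1.23 to 0.64), so the median and the mean differed in sign. Its members Slc51a (0.17) and Slc51b (0.0047), bile acid exporters, overlapped between groups, and Slc10a2, the ileal bile acid importer, was low at 0.295 to 2.18 CPM. Of the B cell list, Igkc (−0.42; −1.54 to 0.70), Igha (−0.40; −1.40 to 0.60) and Jchain (−0.45; −1.47 to 0.58), all of antibody-secreting cells, spread widely.

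Among genes of fat handling, which NT is known to promote in the gut, none passed the test. Of the lists described here, mitochondrial fatty acid oxidation had the narrowest interval, and the others were bounded less closely. In the mitochondrial fatty acid oxidation list 13 of 18 genes were above 0 (median, 0.018, and −0.010 to 0.063 with 1 mouse left out; list difference, 0.025, interval −0.14 to 0.19). The 95% interval of each of the 18 lay within 1.5-fold, as for 92.4% of all tested genes from 10 to 100 CPM. Acadm, the medium-chain dehydrogenase, was at 84.9 to 97.9 CPM in Nt+/+ mice and at 90.4 to 111 CPM in Nt-/- mice (0.15; 0.0014 to 0.29) and was nominal, though not with the file name number as block, which placed the list median at −0.0092. Acads (0.15), Hadh (0.059), Hadha (0.0086; −0.19 to 0.21) and Cpt1a, the gate enzyme of mitochondrial import (−0.049; −0.35 to 0.26), were not. Peroxisomal and omega oxidation genes were above 0 in 11 of 12 (median, 0.081, and 0.027 without Nt+/+ mouse 1; list difference, 0.11, interval −0.25 to 0.47), with Ehhadh at 0.14, Cat, catalase, at 0.19 and Scp2 at 0.079.

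PPAR receptors and targets were above 0 in 13 of 22 (median, 0.043, and −0.033 without Nt-/- mouse 4; list difference, 0.041, interval −0.32 to 0.40). Slc27a2, a fatty acid transporter, was at 68.8 to 87.8 CPM in Nt+/+ mice and at 57.8 to 73.6 CPM in Nt-/- mice (−0.21; −0.44 to 0.025), Ppargc1a differed by 0.30 (−0.067 to 0.66), Acsl5 by 0.14 and Slc27a4 by 0.033. In fasted mice Slc27a2 was at 0.24, and the difference between diets had an unadjusted p of 0.00779 in edgeR. Fat absorption and triglyceride genes were above 0 in 16 of 18 (median, 0.078, and 0.015 without Nt+/+ mouse 1; list difference, 0.091, interval −0.35 to 0.53). Fabp1, a fatty acid binding protein of enterocytes, differed by 0.31 (−0.19 to 0.80), Mogat2, which rebuilds triglyceride, by 0.17, Apob by 0.040 (−0.43 to 0.51) and Mttp by 0.073 (−0.28 to 0.42). Nt+/+ mouse 1 had the lowest value of all 9 mice for each of these 4 genes.

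In further pathways no member passed the test. All 16 genes of the tricarboxylic acid cycle were above 0 (median, 0.066, and 0.035 to 0.12 with 1 mouse left out; list difference, 0.056, interval −0.082 to 0.19), with citrate synthase, Cs, at 0.069. All 21 ribosome biogenesis genes were below 0 (median, −0.038; list difference, −0.048, interval −0.27 to 0.17), with the nucleolar genes Ncl and Npm1 both at −0.037. That count was 12 of 21 with the file name number as replicate block (median, −0.0059) and 11 of 21 in female mice, and the median was 0.013 without Nt-/- mouse 2, −0.11 without Nt+/+ mouse 2 and −0.023 without Nt+/+ mouse 1. For each member of both lists the 95% interval lay within 1.5-fold, as for 92.4% of all tested genes from 10 to 100 CPM. Of 16 heat shock genes 15 were below 0 (median, −0.15, and −0.098 without Nt+/+ mouse 1), and Hsp90aa1, the inducible cytosolic chaperone, was nominal at 401 to 629 CPM in Nt+/+ mice and 346 to 431 CPM in Nt-/- mice (−0.38; −0.65 to −0.11). Of 19 genes of the unfolded protein response 14 were below 0 (median, −0.14, and −0.092 without Nt+/+ mouse 1), with Creld2 nominal (−0.37; −0.73 to −0.012) and the chaperones Hsp90b1 (−0.24) and Canx (−0.12) not. With the replicate block 2 (title number) or 4 (file name number) of these genes were nominal. Of 16 genes of xenobiotic metabolism 14 were above 0 (median, 0.17, and 0.031 without Nt+/+ mouse 1), and Ces2a, a carboxylesterase, was nominal at 36.1 to 61.6 CPM in Nt+/+ and 50.4 to 87.4 CPM in Nt-/- mice (0.52; 0.11 to 0.92), with overlap. There the block gave 2 and 3 nominal genes, and over all genes the nominal share under the blocks was 2.92% and 3.08%.

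**Figure D4:**
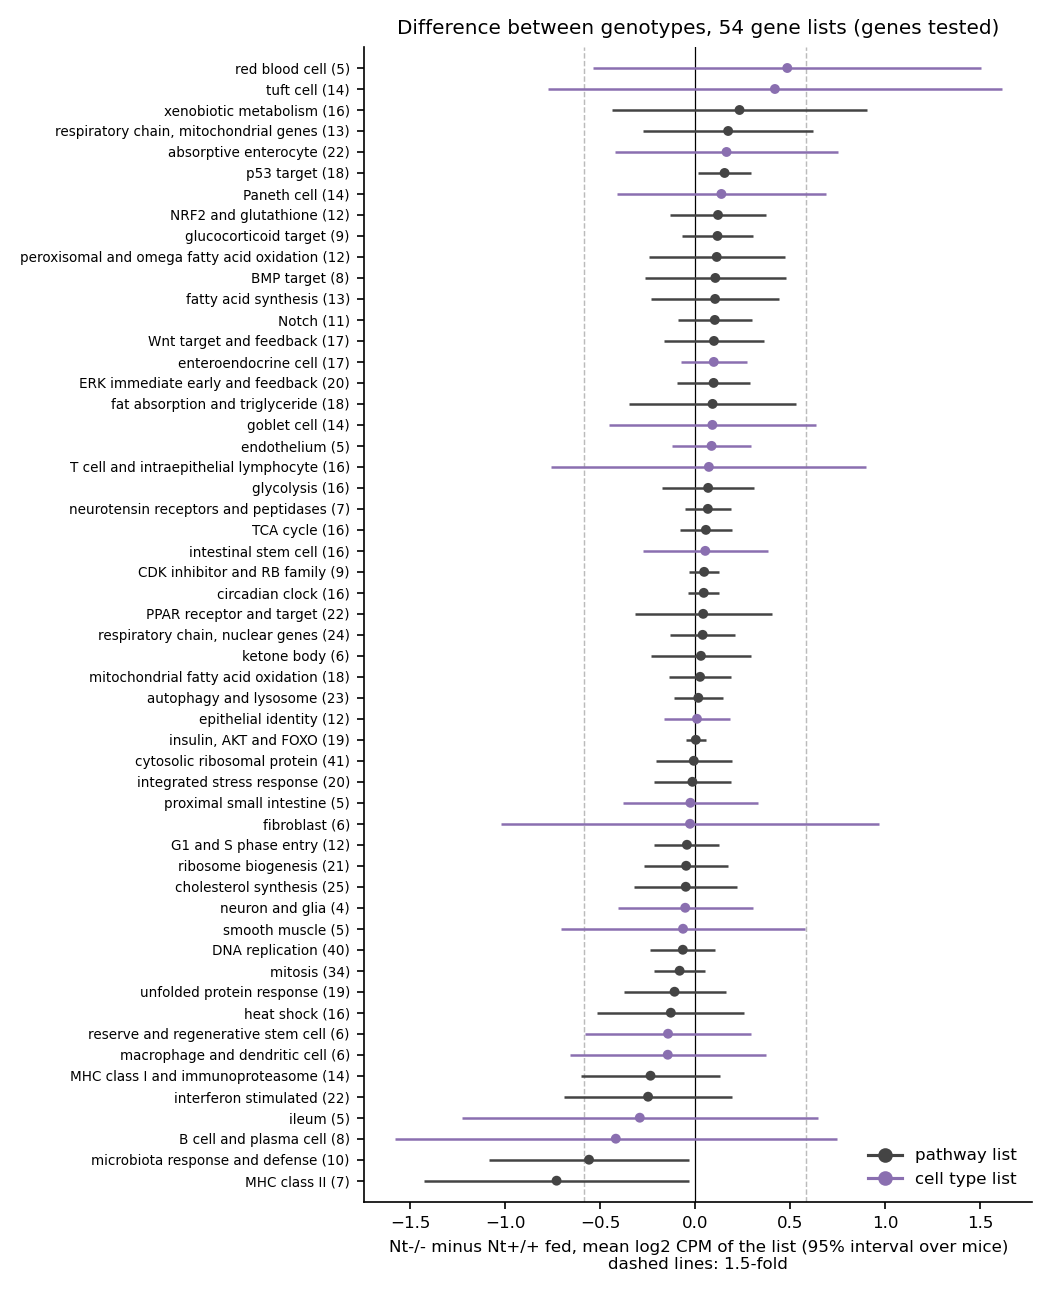
Difference between fed Nt-/- and Nt+/+ mice in the mean log2 CPM of 54 gene lists, with the 95% interval over the 9 mice, sorted by size; the number of genes tested is in parentheses, and dashed lines mark 1.5-fold. Of the 54 intervals 37 lie between the dashed lines and 3 leave out 0, MHC class II and the microbiota response below it and p53 targets above it, with no pairing of the mice.

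Over the 54 lists, the half-width of the interval had a median of 0.30 (range, 0.052 to 1.19). A difference beyond 1.5-fold lay outside the interval of 37 lists and beyond 2-fold outside that of 47. Pathway lists were better bounded than cell type lists, with median half-widths of 0.23 and 0.55. The list medians were less steady: 24 of 54 kept their sign in all 20 alternatives, and 28 in each of the 9 cases with 1 mouse left out. In 52 of the 54 at least 1 of those 9 cases moved the median by over 1.5 times, the exceptions being MHC class II and p53 targets. The Reactome pathways were scanned in the same way, and every one of 15 to 200 tested genes was taken, 672 pathways that share many genes. Their medians ran from −0.17 to 0.17, with 277 above 0, and 5% to 95% of them lay between −0.068 and 0.047. The interval of the pathway mean stayed within 1.5-fold for 664 and within 2-fold for 671. The highest median was that of arachidonic acid metabolism, 0.17, with 32 of 40 genes above 0, and the lowest that of DNA methylation, −0.17, with 27 of 30 genes below 0. Intervals of 3 of the 672 pathways left out 0, each at 95% with no adjustment over the pathways. Among them was branched-chain amino acid catabolism, with 15 of 16 genes above 0 (mean difference, 0.10; interval, 0.035 to 0.18). Its member Aldh6a1 was a leading gene in the same mice, so gene and pathway are not separate evidence.

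Single genes were bounded according to their level. The median half-width of the 95% interval was 0.344 on the log2 scale, or 1.27-fold in either direction, over all 17875 genes. It was 0.855 below 1 CPM, 0.522 from 1 to 10 CPM, 0.223 from 10 to 100 CPM and 0.196 above 100 CPM. Tested against a bound and adjusted over all genes, a change beyond 2-fold was excluded for 15735 genes (88%) and a change beyond 1.5-fold for 11112 (62.2%). The interval itself lay within 2-fold for 83.8% of genes. Above 100 CPM these shares were 98.5% and 94.6% of 1969 genes, and below 1 CPM 49.8% and 0.968% of 2996 genes. The measured differences were small, with a median size of 0.0765 (log2) in fed mice and 0.129 for the genotype difference in fasted mice. With only the 9 fed mice in the fit the median half-width was 0.287.

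**Figure D5:**
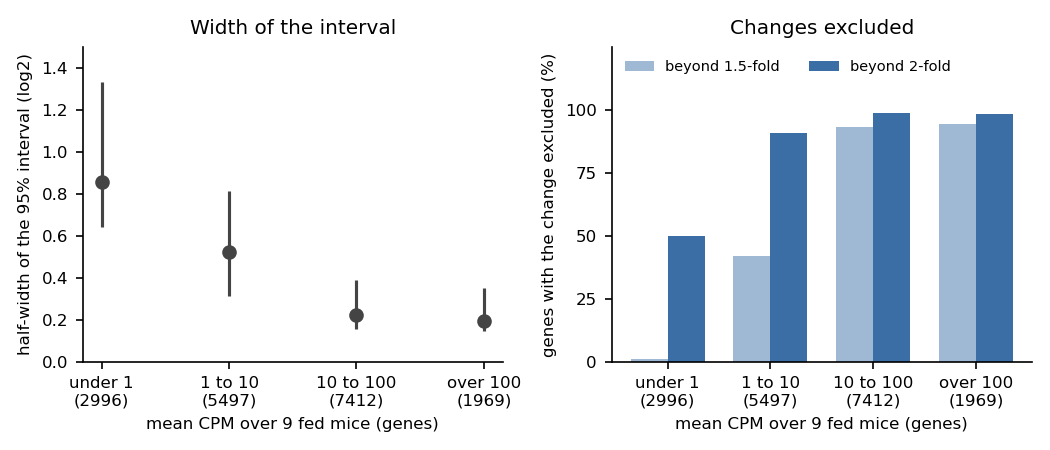
Precision of the fed comparison by mean CPM over the 9 mice, with the number of genes in parentheses. Left, median half-width of the 95% interval of the log2 fold change (point) with its 10th to 90th percentile (line); right, percentage of genes for which a change beyond 1.5-fold (light bars) or 2-fold (dark bars) was excluded at an adjusted p under 0.05. Below 1 CPM 0.968% of genes exclude a 1.5-fold change, against 93.2% from 10 to 100 CPM.

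Genes near Nts were looked at separately, since a knockout line can carry a stretch of foreign chromosome around the targeted gene. Nts lies on chromosome 10 (chr10:102481756-102490486, GRCm38, minus strand). Of the 75 other genes tested within 10 Mb, 54 were below 0 and 21 above (median, −0.036), against 50.4% below 0 over all genes. None was nominal (1.67% over all genes), and in none were the groups apart. Under each replicate block 3 were nominal, where the share over all genes was 2.92% (title number) and 3.08% (file name number). With each fed mouse left out in turn, the share of tested neighbours below 0 ran from 54.67% to 72%. The excess below 0 was thus not steady, and its low end lay close to the 50.4% over all genes.

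No gene passed the test of the difference between the fed and the fasted genotype effect in edgeR, and 485 genes (2.71%) were nominal. That count was 1013 with the file name number and 851 with the title number as replicate block. It was 321 without Nt-/- mouse 3 and 811 without Nt-/- mouse 4, in both cases of the fed group.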

How the data were processed

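Total RNA of isolated crypts was sequenced from 19 mice, 1 library per mouse. The authors deposited, for each mouse, RSEM expected counts and TPM values per gene; per the labels, reads were trimmed with Trimmomatic 0.39 and quantified on GRCm38, and the RSEM version is not given in the sources used here. The deposited expected counts were rounded and fitted in edgeR 4.0.16 (R 4.3.3; TMM, low counts filtered by group, quasi-likelihood test, Benjamini-Hochberg adjustment at 0.05) with the 4 groups in 1 fit and no covariate; 95% intervals came from the fitted standard errors, and bounds of 1.5-fold and 2-fold were tested with paired one-sided tests. The deposited TPM values served for marker sums alone. CPM values are TMM-scaled. RSEM divides reads that fit several genes, and the values depend on that division.

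Gene lists, the Reactome scan and members were chosen with earlier results of these data known. List levels are means of log2 CPM with a prior count of 2, and their intervals rest on the 9 mice, unpaired and unadjusted for the number of lists; intervals over the 4 pairs of fed mice that share a file name number were added after the data were seen. Genes named were Nts and its list, 12 genes that the study measured, every gene called, the 10 above and the 10 below 0 with the smallest p among genes of at least 5 CPM, and in each list described the 2 members with the smallest p and the 2 most abundant; nominal members are also named, and a few further members of these lists, Cd14, Fam177a and the gene stretches were chosen after their values were seen. Some genes that this rule names are not reported here. The script was tested on simulated data.

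Same-numbered fed mice deviated together by the number in the file names (4 of 4 pairs over 0.1, mean correlation 0.244, against −0.0622 for 16 other pairs) and not by the number in the titles (2 of 4 pairs, mean 0.160), so the former number was taken to pair the mice; what it marks is not stated. Alternatives were DESeq2 1.42.0, limma 3.58.1 (voom), upper quartile scaling, other filters on low counts, a block by either number, sex, female mice alone, the fed mice alone and each fed mouse left out. One fasted mouse has a title and a genotype label that disagree and was grouped by its title, and another has no sex label. Each library came from 1 mouse, and the p-values measure the spread between these mice.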

Additional observations from a re-analysis of the deposited data

Results flagged for a closer look

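Samples far from the others of their group by Dixon's test were found in 19 of 322 groups checked, and chance flags about 1 in 20. Of the 19, 9 lay in Nt+/+ mouse 1, the library with 11.5% of its counts in 1 ribosomal RNA transcript. In that mouse Sox9 was at 106.7 CPM, Dclk1 at 130.6, Trpm5 at 118.4, Top2a at 549.1 and Ly6a at 3.694 CPM, each above the rest of the group, and Pm20d1 at 32.62 and Scp2 at 155.9 CPM, each below it. Its mean log2 CPM was 0.9243 for the macrophage and dendritic cell list, below the group, and 6.638 for fatty acid synthesis, above it. In Nt+/+ mouse 2 Ascl2 was low at 3.069 CPM, Insr high at 167.3 CPM and Hadha high at 271.2 CPM, and in Nt+/+ mouse 3 Trp53i11 was high at 32.37 CPM. Among Nt-/- mice, mouse 4 had the highest Nts (0.7457 CPM) and the highest mean log2 CPM of the mitochondrially encoded respiratory genes (10.73), mouse 2 the lowest Ascl2 (2.706 CPM), Wnt list mean (4.049) and ERK list mean (3.555), and mouse 1 the highest Sort1 (379.8 CPM).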

How the results depend on the processing

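Nts was called in every alternative that tested it. With at least 10 counts in every mouse, a filter that removes Nts, 0 genes were called in edgeR (203 nominal). DESeq2 called 3 (1 higher, 2 lower; 266 nominal), and the average over diets 4 (1 higher, 3 lower; 1211 nominal). Without any filter 745 genes were nominal, the median half-width was 1.003, and a change beyond 1.5-fold and 2-fold was excluded for 29.6% and 43.4% of genes. Leaving out 1 mouse gave 237 to 461 nominal genes (461 without Nt+/+ mouse 1), 321 to 811 for the difference between diets and 0 to 2 near Nts. Near Nts 1 gene was nominal with DESeq2, with sex as a covariate and with the 9 fed mice alone, and 2 with voom. The difference between diets gave 1066 without a filter.

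With the replicate block the fed comparison gave 551 (file name number) and 522 (title number) nominal genes, the difference between diets 1013 and 851, and the genes near Nts 3 and 3; no other gene was called under either block. The highest and lowest Reactome medians were taken afresh over all pathways in each setting, so the pathway behind them can differ. The highest, 0.17 as reported, was 0.38 and 0.34 under the blocks, 0.27 with voom, 0.42 in females and 0.16 to 0.36 with 1 mouse left out. The lowest, −0.17 as reported, was −0.28 to −0.094 with 1 mouse left out. The circadian list median (0.092) was 0.040 with the title block and 0.062 to 0.15 with 1 mouse left out. In females the medians were −0.98 for B cells, −0.098 for endothelium and −0.22 for neurons and glia, the last −0.24 with at least 10 counts per mouse. The microbiota median ranged from −0.86 to −0.14 with 1 mouse left out (−0.86 without Nt-/- mouse 2). Of the 54 lists, 3 had an interval without 0, 4 with the replicate block over the 4 pairs by file name number, and 0 to 3 with 1 mouse left out (0 without Nt+/+ mouse 2, Nt+/+ mouse 3 or Nt-/- mouse 3). The cause of these shifts was not tested.

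Genes that did not pass and lay near 0 changed sign as follows (log2 fold changes). With at least 10 counts in every mouse Slc51b was at −0.0027. In female mice Mme was at −0.026, Msi1 at 0.13, Olfm4 at 0.029, Myc at −0.034, Hadha at −0.070, Scp2 at −0.0044, Apob at −0.029, Slc10a2 at −0.063, Slc51b at −0.097, Lyz1 at 0.17, Dclk1 at −0.029, Trpm5 at −0.030. With the file name number as block Tnfrsf19 was at −0.020, Myc at −0.21, Axin2 at −0.031, Lrig1 at −0.0017, Hadha at −0.039. With voom Slc10a2 was at −0.14. With sex as a covariate Myc was at −0.057, Lrig1 at −0.0035. With the title number as block Olfm4 was at 0.044, Slc51b at −0.012. With upper quartile scaling Slc51b was at −0.0059. Leaving out 1 mouse gave ranges of −0.12 to 0.14 for Apob, −0.022 to 0.19 for Axin2, −0.023 to 0.14 for Chga, −0.13 to 0.049 for Cpt1a, −0.032 to 0.19 for Ephb3, −0.057 to 0.063 for Hadha, −0.046 to 0.12 for Hopx, −0.039 to 0.053 for Lrig1, −0.10 to 0.35 for Mme, −0.13 to 0.015 for Msi1, −0.043 to 0.16 for Mttp, −0.069 to 0.35 for Muc2, −0.046 to 0.16 for Myc, −0.041 to 0.052 for Nln, −0.18 to 0.052 for Olfm4, −0.048 to 0.16 for Scp2, −0.090 to 0.68 for Slc10a2, −0.099 to 0.17 for Slc27a4, −0.12 to 0.10 for Slc51b, −0.0091 to 0.11 for Sort1, −0.17 to 0.21 for Tnfrsf19, −0.0063 to 0.95 for Trpm5. Below 10 CPM a change beyond 1.5-fold was not excluded for most genes.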
